A study of Mus musculus with 6 samples.

Results

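The glycolysis and hypoxia genes described here are 33 members of 37991 gene identifiers in the count files: glucose transporters, the enzymes of glycolysis and their isoforms, the enzymes and transporters that handle lactate, the kinase that restrains pyruvate dehydrogenase, and subunits, regulators and targets of the hypoxia-inducible factor (HIF). Members were taken from a written list and matched by symbol to Ensembl identifiers, and all 33 were found. The counts come from messenger RNA sequencing of group 2 innate lymphoid cells (ILC2), lymphocytes without antigen receptors that make type 2 cytokines, sorted as lineage-negative cells with Thy1 and ST2, the IL-33 receptor chain. There were 6 libraries in 3 groups of 2: ILC2 taken directly from the thymus, ILC2 taken directly from mesenteric lymph nodes (fresh MLN), and MLN ILC2 grown for 1 week in the cytokines IL-7, IL-33 and IL-25, each at 10 ng/ml (cultured). Every mouse was homozygous for an Id1 transgene driven by the proximal lck promoter, made in FVB/N and then crossed onto C57BL/J over 10 or more generations. No group came from mice without the transgene. The labels describe these mice as unable to make T cells and rich in ILC2, which limits the thymus samples as a picture of a normal thymus. No ages are given in those labels.

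Glycolysis splits glucose into pyruvate in the cytosol, and most of its steps can be run by several isoenzymes that differ in affinity, regulation and tissue. Lymphocytes that are activated or dividing usually take up more glucose and release more lactate, and many genes of the pathway are targets of HIF. HIF is a pair of an oxygen-sensitive alpha subunit and a stable partner; prolyl hydroxylases mark the alpha subunit for destruction when oxygen is present, and growth and cytokine signals can raise it as well.

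Library totals ran from 35280692 to 40578264 counts, and levels are CPM, counts scaled to the library totals after TMM adjustment. Genes were tested with edgeR's quasi-likelihood test in 1 fit of all 6 libraries, adjusted over 16231 genes, and called genes have an adjusted p under 0.05. Differences are log2 fold changes ± SE. Nothing in the labels says that the 2 libraries of a group came from separate animals or cultures, so a p measures only the spread between these libraries. In a bulk sample, fewer cells of a type and less RNA per cell cannot be told apart. Of the defining ILC2 genes, Gata3 lay between 599 and 1063 CPM over the 6 libraries and Il1rl1, the ST2 gene, between 1444 and 2341. Of 10 genes on the list of ILC2 and sort markers, 2 were higher and 5 lower in thymus than in fresh MLN. The shares of all genes tested were 25.3% and 22.0% there. In culture 5 were higher and 5 lower than in fresh MLN, where 39.4% of all genes were higher and 38.1% lower. The 5 higher were Icos (mean of 1491 CPM from 231), Klrg1 (179 from 79.3), Id2 (1256 from 873), Gata3 (1048 from 610) and Il1rl1 (2314 from 1851). The Il1rl1 call was lost with library totals alone. Among the 5 lower, Il17rb, which encodes a chain of the IL-25 receptor, fell to a mean of 112 CPM from 2905 (-4.69 ± 0.09). Il7r, the IL-7 receptor gene, fell to 851 from 2280 (-1.42 ± 0.08) and the sort marker gene Thy1 to 113 from 335 (-1.57 ± 0.10). Il17rb, Il7r and Thy1 were chosen after their values were seen. Rora and Id1 were the others that fell. Cultured and fresh MLN cells differ in cytokines, time and medium together, and these cannot be told apart. Cultured MLN cells and thymus cells differ in tissue of origin as well, which cannot be told apart from culture. Id1 lay between 421 and 469 CPM in the 4 libraries of uncultured cells (the fresh libraries) and at 1.48 and 1.19 CPM in the cultured ones; counts per gene do not separate transgene from endogenous transcripts.

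Both comparisons with fresh MLN use the same fresh MLN libraries, so their values stand side by side without being independent. Against fresh MLN, 29 of the 33 members were higher in cultured cells, 3 were lower and 1 was not called, where 39.4% of all genes tested were higher and 38.1% lower. The median member differed by 2.94 on the log2 scale, and the median of all genes by -0.01. In a test against a 2-fold change, 24 members were higher and 2 lower, and 19.6% and 15.3% of all genes. Thymus cells had higher levels of 17 members and lower levels of 5, with 11 not called, where 25.3% of all genes were higher and 22.0% lower. Here the median member differed by 0.25 and the median gene by 0, and the 2-fold test called 4 members higher (Aldoc, Tpi1, Ldha and Egln3) and 0 lower, against 5.53% and 2.47% of all genes. Cultured cells against thymus gave 30 members higher and 3 lower, where 34.8% and 37.8% of all genes were called in these directions, with a member median of 2.31 and an all-gene median of -0.06. Scaling by library totals alone moved the all-gene median to -0.23 in culture against fresh MLN and to -0.32 in culture against thymus. The all-gene calls then went from 6403 higher and 6189 lower to 5382 and 7498, and from 5654 and 6139 to 4254 and 7881. Taken as a share of all counts, the 33 members made up 0.380% and 0.387% of the thymus libraries, 0.274% and 0.264% for fresh MLN and 1.65% and 1.74% after culture.

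**Figure D1:**
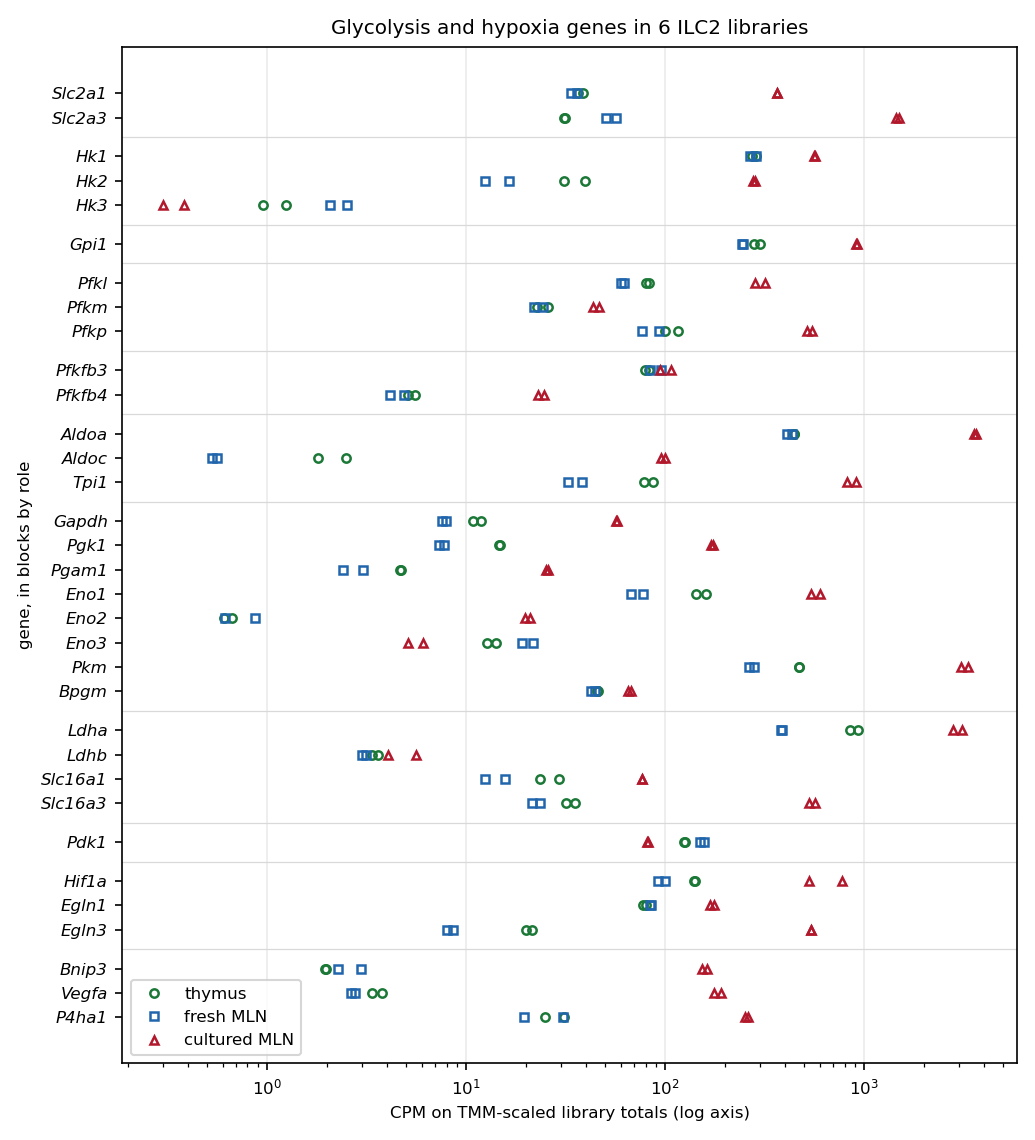
Level of each of the 33 members in each of the 6 libraries, in CPM on a log axis, with genes in blocks by role. Cultured libraries (triangles) lie to the right of all 4 fresh libraries for 29 genes, to the left for Hk3, Eno3 and Pdk1, and overlap them for Pfkfb3.

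Promoter sequences are shown for 5 members whose values the account turns on: 4 that rose in culture (Bnip3, Egln3, Ldha and Slc16a3) and Pdk1, a textbook HIF target that fell. These 5 were chosen after their values were seen. Each line gives the 250 bases before a RefSeq transcription start (for Ldha and Pdk1, the first of 2 starts), 5′ to 3′ on the strand of the gene, build GRCm38.p6, with ACGTG and GCGTG in capitals, and likewise CACGT and CACGC, which are the same motifs read on the other strand. ACGTG and GCGTG are the 2 core forms of the element that HIF is known to bind.
Bnip3, chr7:138909507-138909756, minus strand: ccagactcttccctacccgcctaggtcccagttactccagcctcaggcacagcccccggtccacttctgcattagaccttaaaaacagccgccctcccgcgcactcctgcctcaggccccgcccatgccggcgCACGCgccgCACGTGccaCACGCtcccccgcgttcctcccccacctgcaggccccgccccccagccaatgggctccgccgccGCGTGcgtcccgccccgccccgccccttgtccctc
Egln3, chr12:54203875-54204124, minus strand: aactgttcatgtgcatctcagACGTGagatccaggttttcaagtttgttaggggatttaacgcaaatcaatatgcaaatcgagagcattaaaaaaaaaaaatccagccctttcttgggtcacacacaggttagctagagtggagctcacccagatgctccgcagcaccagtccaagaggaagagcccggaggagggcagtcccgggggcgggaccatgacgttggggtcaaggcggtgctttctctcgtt
Ldha, chr7:46845554-46845803, plus strand: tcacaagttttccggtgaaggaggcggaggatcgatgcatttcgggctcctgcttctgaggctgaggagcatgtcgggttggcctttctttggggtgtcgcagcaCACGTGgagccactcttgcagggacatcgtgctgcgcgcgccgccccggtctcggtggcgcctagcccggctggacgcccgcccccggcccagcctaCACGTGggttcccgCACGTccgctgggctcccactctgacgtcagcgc
Slc16a3, chr11:120948817-120949066, plus strand: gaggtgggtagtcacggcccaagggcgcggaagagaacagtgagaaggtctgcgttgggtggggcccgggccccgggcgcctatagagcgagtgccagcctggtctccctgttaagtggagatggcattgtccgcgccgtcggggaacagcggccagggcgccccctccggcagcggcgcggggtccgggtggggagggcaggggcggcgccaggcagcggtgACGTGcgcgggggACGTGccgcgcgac
Pdk1, chr2:71872974-71873223, plus strand: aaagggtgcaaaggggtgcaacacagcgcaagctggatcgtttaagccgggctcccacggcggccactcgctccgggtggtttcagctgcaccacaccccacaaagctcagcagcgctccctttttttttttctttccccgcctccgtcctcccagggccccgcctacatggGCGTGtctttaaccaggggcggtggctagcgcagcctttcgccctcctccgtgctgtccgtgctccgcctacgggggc
The Ldha window held 5 matches of ACGTG over both strands, and its 2 CACGTG palindromes count on each strand. Bnip3 had 2 matches of ACGTG, both from 1 CACGTG, and 3 of GCGTG. Slc16a3 had 2 of ACGTG, Egln3 1 of ACGTG and Pdk1 1 of GCGTG. RefSeq windows matched 32 of the 33 members, at 46 starts. Over these 46 windows, 45.7% held ACGTG and 52.2% GCGTG on either strand, against 16.6% and 28.2% of all 32851 windows of this length. At least 1 of the motifs stood in 36 member windows (78.3%) and in 38.6% of all windows, and CACGTG, which contains ACGTG on both strands, in 13.0% and 6.02%. Member windows were also richer in G and C, with a median of 60% against 52.4%, and the part of this in the motif counts was not tested. The member list was written to include HIF targets, so a higher share of these motifs is no independent result. Some windows of the same gene overlap, as for Eno1, Aldoa and Pfkm, and can count a motif more than once. A match is a run of letters and does not show binding.

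Glucose enters lymphocytes mainly through the transporters GLUT1 and GLUT3, and both genes were higher after culture. Slc2a3, which encodes the high-affinity GLUT3, stood at 56.6 and 50.4 CPM in fresh MLN, 31.4 and 31.2 in thymus and 1449 and 1492 in culture. The 3 groups did not overlap, and thymus was the lowest. The difference was 4.78 ± 0.09 for cultured against fresh MLN (adjusted p = 5.27e-14) and -0.78 ± 0.08 for thymus against fresh MLN (adjusted p = 3.80e-06). Slc2a1, which encodes GLUT1, measured 33.7 and 36.0 CPM in fresh MLN, 38.6 and 36.5 in thymus and 366 and 367 in culture. Both cultured values lay far above the rest (10.5-fold over fresh MLN, 3.40 ± 0.07 on the log2 scale), and the thymus difference of 0.11 ± 0.07 was not called. Per kilobase of exon, Slc2a3 made up 28.7% of the summed level of both transporters in thymus, 42.6% in fresh MLN and 66.0% in culture, with SDs of 0.709, 3.16 and 0.431 percentage points (n = 2). The share differed without overlap in all 3 comparisons.

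Hexokinases trap glucose in the cell as glucose 6-phosphate, and the isoform that rose most was Hk2, the inducible form. Hk2 was at 16.4 and 12.5 CPM in fresh MLN, 39.9 and 31.1 in thymus and 282 and 277 in culture. No groups overlapped, with differences from fresh MLN of 1.30 ± 0.13 in thymus and 4.27 ± 0.13 in culture (adjusted p = 2.96e-06 and 4.74e-12). Hk1, the broadly expressed form, gave 288 and 266 CPM in fresh MLN, 275 and 286 in thymus and 558 and 570.3 in culture. Thymus and fresh MLN overlapped for Hk1 (0.02 ± 0.07, a sign that turns with the scaling), and it was higher in culture by 1.03 ± 0.07. Hk3, the form of myeloid cells, fell to 0.344 CPM in culture from 2.30 in fresh MLN (-2.72 ± 0.33), with only 10 and 14 counts in the cultured libraries. Its thymus mean was 1.11 CPM (-1.06 ± 0.27, adjusted p = 0.00644); that call was lost without thymus replicate 1 (-0.87, adjusted p = 0.0577) and without fresh MLN replicate 2 (-0.92, adjusted p = 0.0540). Of 10 tested genes of the macrophage and monocyte list, thymus had 0 higher and 5 lower than fresh MLN, and culture 3 higher and 7 lower. Their summed level over 12 genes was 10.4 to 15.6 CPM in thymus, 91.7 to 98.9 in fresh MLN and 25.7 to 27.9 in culture. Cybb, a phagocyte oxidase subunit gene, carried most of the fresh MLN sum, at 72.2 and 66.8 CPM there and below 1 CPM elsewhere. Without it the other 11 genes summed to 19.4 and 32.1 CPM in fresh MLN and 25.7 and 27.8 in culture, which overlapped, against 9.93 and 14.8 in thymus. The part of these genes in the Hk3 values was not tested. Of the hexokinase level per kilobase, Hk2 held 15.2% in thymus, 6.79% in fresh MLN and 41.5% in culture. With the longest coding transcript as length, Hk2 held 8.91%, 3.83% and 27.8% in the same order. With either length Hk1 led in all 6 libraries.

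Gpi1 and the phosphofructokinases carry glucose 6-phosphate to fructose 1,6-bisphosphate, the committed step of the pathway. Gpi1, glucose phosphate isomerase, was at 245 and 244 CPM in fresh MLN, 281 and 301 in thymus and 918 and 908 in culture, with all 3 groups apart (0.25 ± 0.07 and 1.90 ± 0.07 against fresh MLN). Pfkl, the liver-type subunit, gave 62.7 and 60.4 CPM in fresh MLN, 83.6 and 80.0 in thymus and 284 and 317 in culture. It was higher than fresh MLN in both other groups, by 0.41 ± 0.07 and 2.29 ± 0.07. Pfkp, the platelet-type subunit, lay at 93.8 and 77.0 CPM, 116 and 99.6 and 549 and 519 in the same order. Its culture difference was 2.64 ± 0.10, and its small thymus difference (0.34 ± 0.10, adjusted p = 0.0127) was not called without thymus replicate 1 (0.23, adjusted p = 0.0973) or without fresh MLN replicate 2 (0.20, adjusted p = 0.151). Pfkm, the muscle-type subunit, had means of 23.3 CPM in fresh MLN, 24.3 in thymus and 45.0 in culture. It rose least of the 3 in culture (0.95 ± 0.09) and was not called in thymus (0.06 ± 0.09). Its share of the 3 subunits per kilobase was 26.4% in thymus, 30.9% in fresh MLN and 13.7% in culture, while that of Pfkp was 29.1%, 28.2% and 40.6%. Pfkl led in every library on the union of exons, at 44.5%, 40.9% and 45.7%, but Pfkp led in every library when the longest coding transcript was used as length.

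The bifunctional enzymes PFKFB3 and PFKFB4 set the level of fructose 2,6-bisphosphate, which switches phosphofructokinase on, and 1 of the pair was called in culture against fresh MLN. Pfkfb3, known elsewhere as an induced activator of glycolysis, was at 84.1 and 95.9 CPM in fresh MLN, 79.1 and 83.6 in thymus and 94.1 and 108 in culture. Cultured and fresh MLN values overlapped, and the difference of 0.17 ± 0.08 was not called (adjusted p = 0.0849); it was called without fresh MLN replicate 2 (0.25, adjusted p = 0.0300), without cultured replicate 1 (0.26, adjusted p = 0.0306), with RLE factors (0.19, adjusted p = 0.0476) or with the replicate number as a block (0.16, adjusted p = 0.0277), and was -0.06 with library totals alone. Against thymus the cultured level was higher by 0.31 ± 0.08, a call lost without cultured replicate 2 (0.22, adjusted p = 0.0736) and with library totals alone (0.053, adjusted p = 0.569). Pfkfb4 measured 4.16 and 4.88 CPM in fresh MLN, 5.12 and 5.56 in thymus and 24.6 and 23.0 in culture. Only the cultured libraries stood apart by more than 1 on the log2 scale (2.40 ± 0.13, adjusted p = 1.12e-09), and the Pfkfb4 share of the pair per kilobase was 9.24% in thymus, 7.22% in fresh MLN and 26.9% in culture. That share leaves out the isoform gene Pfkfb2, which is not a member. Pfkfb2 was at 69.7 and 71.2 CPM in fresh MLN, 51.0 and 47.2 in thymus and 34.5 and 32.5 in culture. Per kilobase, fresh MLN had 9.71 CPM of Pfkfb2, 11.9 of Pfkfb3 and 0.928 of Pfkfb4. The cultured levels were 4.62, 13.3 and 4.88.

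Aldolases split the 6-carbon sugar, and triose phosphate isomerase interconverts the products. Aldoc, the aldolase best known from brain, was at 0.565 and 0.531 CPM in fresh MLN, 2.49 and 1.81 in thymus and 95.9 and 99.6 in culture. The 3 groups were far apart, at 1.97 ± 0.22 in thymus and 7.47 ± 0.14 in culture, the largest difference of any member in both comparisons with fresh MLN. Even so, Aldoc reached a mean of only 2.35% of the aldolase level per kilobase in culture, with 0.429% in thymus and 0.115% in fresh MLN. Aldoa, the main aldolase of most tissues, was at 434 and 412 CPM in fresh MLN, 445 and 445 in thymus and 3668 and 3574 in culture. The thymus difference of 0.07 ± 0.07 was not called, and the cultured level was higher by 3.10 ± 0.08. Tpi1 had the same order of groups as Aldoc, with 38.2 and 32.5 CPM in fresh MLN, 86.9 and 78.3 in thymus and 819.8 and 914 in culture. All groups were apart (1.23 ± 0.09 and 4.62 ± 0.10; adjusted p = 2.67e-07 and 2.59e-13).

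The payoff phase, from glyceraldehyde 3-phosphate to pyruvate, yields the ATP and NADH of glycolysis. Of its 8 members, 5 were higher in thymus than in fresh MLN and 1 was lower, and 7 were higher and 1 lower in culture, where the shares of all genes were 25.3% and 22.0% in thymus and 39.4% and 38.1% in culture. Pkm, pyruvate kinase of muscle and dividing cells, was at 282 and 264 CPM in fresh MLN, 474 and 473 in thymus and 3077 and 3332 in culture. Fresh MLN was the lowest group without overlap, 0.80 ± 0.07 below thymus and 3.55 ± 0.08 below culture as log2 differences. Pgk1, phosphoglycerate kinase, gave 7.35 and 7.78 CPM in fresh MLN, 14.8 and 14.6 in thymus and 174 and 171 in culture, or 0.96 ± 0.08 and 4.51 ± 0.08. Both groups again lay above fresh MLN.

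Gapdh, the dehydrogenase that makes NADH, was at 7.58 and 7.91 CPM in fresh MLN, 11.9 and 10.9 in thymus and 56.6 and 57.5 in culture (0.56 ± 0.10 and 2.88 ± 0.09). Pgam1, phosphoglycerate mutase, had 2.41 and 3.03 CPM in fresh MLN, 4.66 and 4.73 in thymus and 25.9 and 25.3 in culture (0.79 ± 0.15 and 3.23 ± 0.14). Both genes were ordered fresh MLN, thymus, culture, with no overlap. Their absolute levels are uncertain, because many other genes carry near-identical copies of their sequence: of the 50-base stretches of the longest coding transcript, 82.5% were shared with another annotated gene for Gapdh, 72.2% for Eno1, 68% for Pgk1, 48.9% for Bnip3, 41.5% for Pgam1, 30.5% for Pkm, 27% for Ldhb, 19.6% for Gpi1, 16.6% for Ldha, 13.5% for Aldoa and 7.51% for Tpi1. For each of the other 22 members no more than 0.631% was shared. Exon bases overlap another annotated gene for 15.3% of Pkm (Gm49759, same strand), 11.5% of Gpi1 (Gm26762, opposite strand) and 10.2% of Pfkm (Gm26513, same strand). None of these overlapping genes is among the counted identifiers. Pitrm1, which is among them, overlaps 5.58% of Pfkp on the opposite strand. How reads that fit several genes were counted is not known here. Bpgm, which makes the 2,3-bisphosphoglycerate of red cells, had means of 43.5 CPM in fresh MLN, 45.8 in thymus and 66.7 in culture. It differed least among the called genes of this phase, by 0.62 ± 0.07 in culture, and was not called in thymus (0.07 ± 0.07).

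Enolases make phosphoenolpyruvate, and their makeup differed between all 3 groups. Eno1, the general form, was at 77.2 and 67.9 CPM in fresh MLN, 143 and 161 in thymus and 543 and 601 in culture. It stood above fresh MLN by 1.07 ± 0.09 in thymus and 2.98 ± 0.09 in culture. Eno3, the muscle form, went the other way, at 19.2 and 21.7 CPM in fresh MLN, 12.8 and 14.2 in thymus and 6.09 and 5.10 in culture. The groups did not overlap, and Eno3 was lower, at -0.60 ± 0.12 in thymus (adjusted p = 9.86e-04) and -1.87 ± 0.13 in culture (adjusted p = 1.63e-08). Eno2, the neuronal form, was at 0.617 and 0.876 CPM in fresh MLN, 0.665 and 0.611 in thymus and 21.1 and 19.8 in culture. Its fresh MLN and thymus values overlapped (-0.22 ± 0.28, not called), and it rose by 4.77 ± 0.19 in culture. Per kilobase, Eno3 made up 21.5% of enolase in thymus, 46.3% in fresh MLN and 2.84% in culture, and Eno1 made up 78.2%, 53.1% and 93.3%. The fresh MLN SD was 4.45 percentage points for Eno1, the widest of these, and none of the groups overlapped. With the longest coding transcript as length, Eno3 made up 10.3% in thymus, 26.7% in fresh MLN and 1.23% in culture. Of the 50-base stretches, 72.2% were shared with another gene for Eno1 and 0% for Eno3. The sizes of these shares are therefore uncertain.

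**Figure D2:**
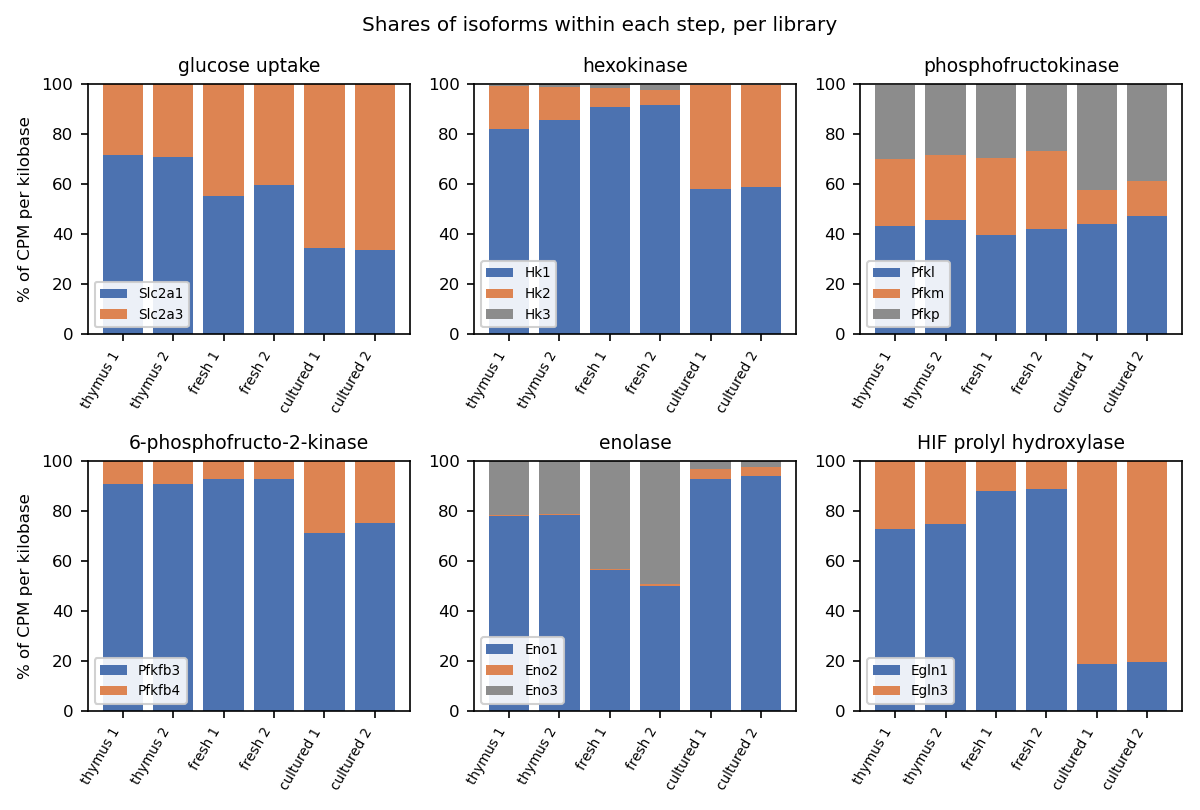
Share of each isoform in the summed CPM per kilobase of exon of the members at 6 steps, in each of the 6 libraries. Each bar adds to 100%. Slc2a3, Hk2, Pfkp, Pfkfb4 and Egln3 hold larger shares in both cultured libraries than in the 4 others, and Eno3 holds its largest share in fresh MLN.

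Lactate dehydrogenase turns pyruvate into lactate and restores NAD+, and monocarboxylate transporters carry lactate across the membrane. Ldha, the subunit that favours lactate formation, was at 383 and 387 CPM in fresh MLN, 854 and 935 in thymus and 2801 and 3103 in culture. The groups were well apart, at 1.22 ± 0.08 in thymus and 2.94 ± 0.08 in culture. Ldhb, the subunit of heart, was low everywhere, with means of 3.08 CPM in fresh MLN, 3.50 in thymus and 4.84 in culture. Its culture difference of 0.65 ± 0.20 (adjusted p = 0.00861) was lost without cultured replicate 1 (0.41, adjusted p = 0.115), as was that against thymus (0.47 ± 0.19; 0.22 without that replicate, 0.41 without thymus replicate 1 and 0.51 without thymus replicate 2, adjusted p = 0.393, 0.151 and 0.0762). With library totals alone both Ldhb calls were lost (0.43 and 0.21, adjusted p = 0.0620 and 0.339), and DESeq2 did not call the difference from thymus (0.53, adjusted p = 0.0561). Ldha made up between 98.3% and 99.7% of the pair per kilobase in every library.

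Slc16a3, which encodes MCT4, the low-affinity exporter of strongly glycolytic cells, was at 23.5 and 21.4 CPM in fresh MLN, 31.7 and 35.5 in thymus and 532 and 567 in culture. Thymus stood above fresh MLN by 0.58 ± 0.08 and culture by 4.61 ± 0.09. Slc16a1, which encodes the more general MCT1, measured 15.6 and 12.5 CPM in fresh MLN, 29.5 and 23.6 in thymus and 76.7 and 76.7 in culture. It was also higher in both, by 0.92 ± 0.12 and 2.45 ± 0.12. Slc16a3 made up 47.2% and 55.6% of the pair per kilobase in the 2 thymus libraries, 55.5% and 58.9% in fresh MLN, and 85.2% and 86.0% in culture. Thymus and fresh MLN shares overlapped, and those of culture lay above both. The promoter of Slc16a3 printed above holds both of its ACGTG matches close to the start.

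Pdk1, the kinase that shuts pyruvate out of the citric acid cycle by blocking pyruvate dehydrogenase, is a textbook HIF target and fell in culture. Pdk1 was at 150.1 and 157 CPM in fresh MLN, 125 and 126 in thymus and 81.1 and 82.2 in culture. Fresh MLN was the highest group and culture the lowest, without overlap, with differences from fresh MLN of -0.29 ± 0.06 (adjusted p = 0.00184) and -0.91 ± 0.06 (adjusted p = 1.67e-08). Its paralog Pdk3 was at 16.3 and 14.3 CPM in fresh MLN, 25.6 and 24.4 in thymus and 48.2 and 51.6 in culture, higher than fresh MLN by 0.71 ± 0.09 and 1.71 ± 0.09.

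Of the oxygen-sensing machinery, Hif1a and the prolyl hydroxylase genes Egln3 and Egln1 rose in culture. Hif1a was at 92.7 and 100.2 CPM in fresh MLN, 139.6 and 142 in thymus and 530.3 and 774 in culture. The 2 cultured libraries differed from each other more than those of any other group for this gene, and both lay far above fresh MLN (2.76 ± 0.14, adjusted p = 6.15e-10). The thymus difference of 0.54 ± 0.13 was called by edgeR (adjusted p = 0.00420) but not by DESeq2 (0.51, adjusted p = 0.0509). Hif1a shares 5.6% of its exon bases with Gm15283 on the other strand, and whether counting used strand is not known here. Egln3, a hydroxylase that HIF itself induces, was at 8.58 and 8.07 CPM in fresh MLN, 21.5 and 20.1 in thymus and 541 and 544 in culture. The 3 groups were apart, by 1.32 ± 0.08 in thymus and 6.02 ± 0.08 in culture. Egln1, the main oxygen sensor of most cells, was at 84.8 and 84.6 CPM in fresh MLN, 77.4 and 80.0 in thymus and 168 and 177 in culture. It rose by 1.03 ± 0.06 in culture and was not called in thymus (-0.11 ± 0.06). Of these 2 hydroxylase genes, the larger per kilobase was Egln1 in all 4 fresh libraries and Egln3 in both cultured ones. Egln3 made up 26.3% of the pair in thymus, 11.7% in fresh MLN and 80.9% in culture. Egln2, another HIF prolyl hydroxylase gene, is not a member and is left out of these shares. Per kilobase, Egln2 was at 25.6 CPM in thymus, 27.6 in fresh MLN and 24.2 in culture. Egln1 was at 21.9, 23.6 and 48.0 in the same order.

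The remaining HIF targets were low in fresh cells and high in culture. Bnip3, a mitochondrial protein that promotes mitophagy, was at 2.98 and 2.28 CPM in fresh MLN, 2.00 and 1.97 in thymus and 154 and 163 in culture, a difference of 5.91 ± 0.11. Thymus lay below fresh MLN by a small margin (-0.41 ± 0.16, adjusted p = 0.0451). That thymus call was lost without thymus replicate 1 or 2 (-0.42 and -0.39), without fresh MLN replicate 1 (-0.20), without cultured replicate 1 or 2 (-0.41 for both), with library totals alone (-0.38) and with only the 4 libraries compared (-0.41), at adjusted p between 0.0613 and 0.432. Bnip3 shares 22.3% of its exon bases with Gm45507 on the other strand, a gene not among the counted identifiers. Vegfa, the angiogenic growth factor, was at 2.65 and 2.79 CPM in fresh MLN, 3.79 and 3.38 in thymus and 192 and 177 in culture, a difference of 6.09 ± 0.10. Its thymus difference (0.40 ± 0.13, adjusted p = 0.0205) was lost without thymus replicate 1 (0.32, adjusted p = 0.132), fresh MLN replicate 1 (0.37, adjusted p = 0.0996) or fresh MLN replicate 2 (0.44, adjusted p = 0.0570), and with only the 4 libraries compared (0.40, adjusted p = 0.103). P4ha1, a collagen prolyl hydroxylase subunit, was at 30.9 and 19.7 CPM in fresh MLN, 31.1 and 24.9 in thymus and 262 and 252 in culture, a difference of 3.34 ± 0.16. Its 2 fresh MLN libraries lay far apart, thymus and fresh MLN overlapped (0.15 ± 0.16), and thymus was called higher once fresh MLN replicate 1 was left out (0.51, adjusted p = 0.00420).

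**Figure D3:**
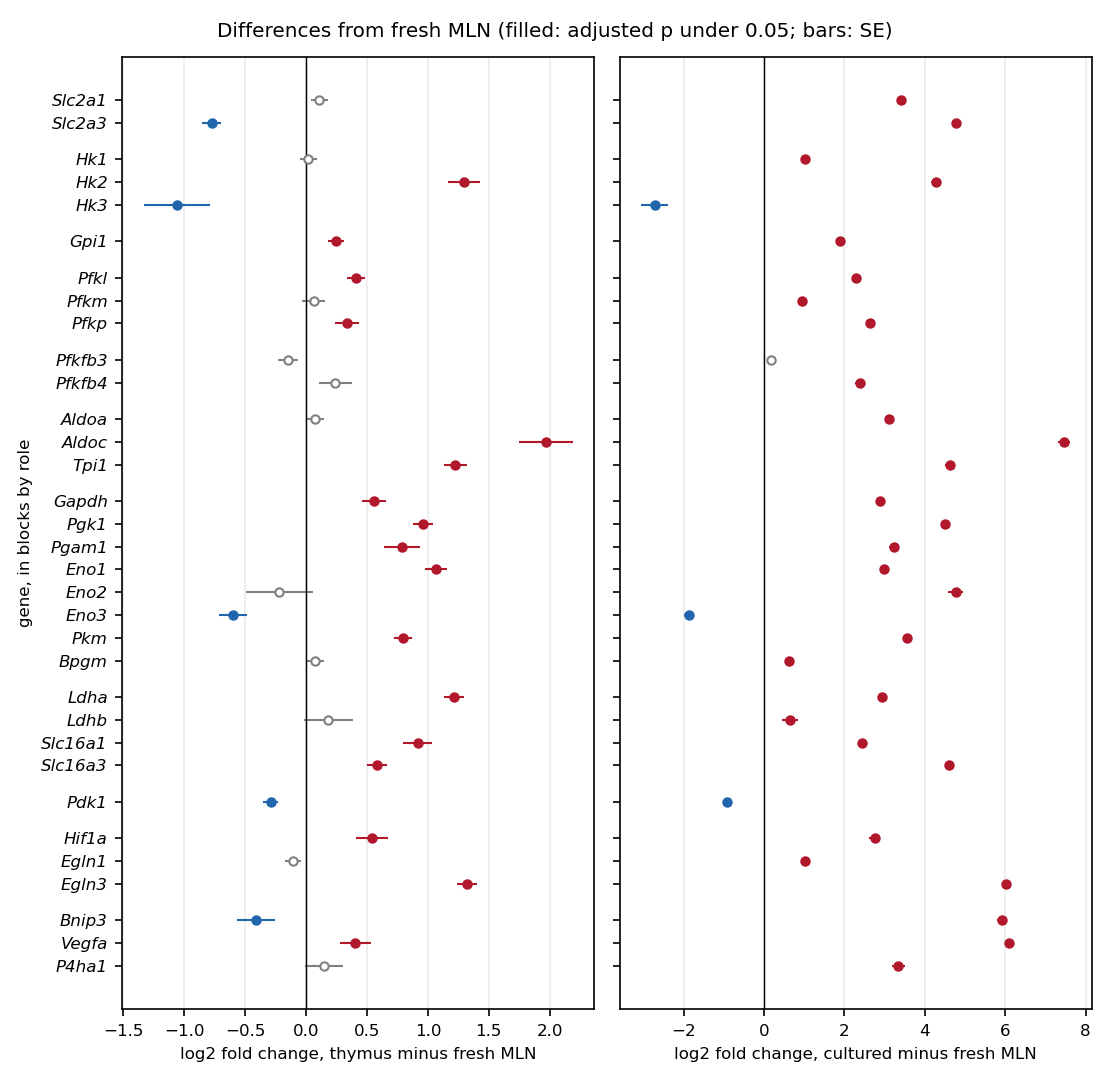
Log2 fold change ± SE of each member against fresh MLN, thymus on the left and culture on the right, with separate axis ranges; filled points passed an adjusted p of 0.05 and open points did not. In thymus the values lie between -1.06 (Hk3) and 1.97 (Aldoc), and in culture between -2.72 (Hk3) and 7.47 (Aldoc).

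Compared per kilobase of exon, the most abundant members were Ldha, Aldoa and Pkm in every group. Their group levels were 270.2, 153 and 94.7 CPM per kilobase in thymus, and 116, 145 and 54.6 in fresh MLN. In culture they were 892, 1244 and 641. Ldha led in thymus and Aldoa in both MLN groups. Levels of members with much shared sequence, such as Gapdh (82.5%), Eno1 (72.2%) and Pgk1 (68%), are uncertain, and so is their place in this ranking. Egln3 and Slc2a3 came next after Tpi1 in culture on the union of exons, at 204 and 203 CPM per kilobase. This order depends on the length used. Slc2a3 has 7245 bases on the union of exons and 3959 in its longest coding transcript, and Egln3 has 2662 in both. At 3 of the 9 steps with isoforms, the leading member was not the same in all 6 libraries. These were glucose uptake, monocarboxylate transport and prolyl hydroxylation of HIF. With the longest coding transcript as length this held for 2 steps, since Slc16a3 then led in every library, and Slc2a3 then led glucose uptake in fresh MLN too.

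Other isoforms of the same steps were called in both directions, at shares near those of all genes. The counts for this and the following lists stand beside 39.4% of all genes higher and 38.1% lower in culture against fresh MLN, and 25.3% and 22.0% in thymus. Genes of the related lists are named by size of difference among those with a group mean of 5 CPM or more. Of 13 tested on that list of 22, 5 were higher and 4 lower in culture than in fresh MLN (38.5% and 30.8%), with a median of 0.07, and 4 were higher and 4 lower in thymus (30.8% each), with a median of 0. Slc2a6, a hexose transporter of leukocytes, was at 2.11 and 2.55 CPM in fresh MLN and 17.9 and 17.3 in culture (2.92 ± 0.16). Tigar, which degrades fructose 2,6-bisphosphate and so acts against glycolysis, rose by 1.94 ± 0.12, and the monocarboxylate transporter gene Slc16a7 fell, with a difference of -2.07 ± 0.28 (-2.72 without cultured replicate 1). Slc2a8 was lower in thymus than in fresh MLN (-1.29 ± 0.15), as was Gapdhs, the sperm form of Gapdh (-0.86 ± 0.14), and Pgam2 was higher (0.56 ± 0.18). The Pgam2 call was lost without thymus replicate 1 (0.42, adjusted p = 0.139), without fresh MLN replicate 1 (0.41, adjusted p = 0.137) and in DESeq2 (0.53, adjusted p = 0.0527).

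Among 9 other genes of the HIF pathway, 3 rose and 3 fell in culture (33.3% each), and in thymus 1 was higher and 3 were lower (11.1% and 33.3%). Epas1, which encodes the HIF-2 alpha subunit, was at 839 and 716 CPM in fresh MLN, 425 and 408 in thymus and 193 and 221 in culture. Its order was opposite to that of Hif1a, with -0.90 ± 0.09 in thymus and -1.91 ± 0.09 in culture, and no groups overlapped. Arnt, the common partner of the alpha subunits, was lower in both (-0.25 ± 0.07 and -0.29 ± 0.07), in thymus not without thymus replicate 2 (-0.18, adjusted p = 0.0867) or fresh MLN replicate 1 (-0.22, adjusted p = 0.0677). Arnt2, a partner best known from brain, rose to 6.85 and 7.19 CPM in culture from 0.206 and 0.106 in fresh MLN (5.46 ± 0.29). Hif3a, an alpha subunit that can inhibit the others, was at 2.80 and 6.37 CPM in fresh MLN, 2.12 and 2.58 in thymus and 11.8 and 12.1 in culture. Its 2 fresh MLN libraries lay far apart, and the culture difference of 1.38 ± 0.26 was 2.08 without fresh MLN replicate 2. In thymus the Hif3a difference was -0.96 ± 0.30, a call lost without fresh MLN replicate 2 (-0.26, adjusted p = 0.380) or thymus replicate 1 (-0.82, adjusted p = 0.0910).

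Further genes known to be induced by hypoxia, 29 of them tested, were mostly higher in culture: 25 rose against fresh MLN and 3 fell, with a median of 2.50. In thymus 11 were higher and 3 lower, with a median of 0.16. The genes of this list named by size, from 5 CPM upward, were Stc2, a secreted glycoprotein, at 0.0514 and 0.212 CPM in fresh MLN and 31.7 and 32.0 in culture (7.89 ± 0.24, and 7.21 to 9.18 without 1 of the fresh MLN libraries), Ndrg1, a stress-response gene (7.59 ± 0.12), and Ak4, a mitochondrial adenylate kinase (7.00 ± 0.15). In thymus they were Ndrg1 (3.44 ± 0.15), the transferrin receptor gene Tfrc (1.58 ± 0.09) and Ankrd37 (1.29 ± 0.21). Against thymus, among genes at 5 CPM or more, cultured cells differed most in Loxl2 (6.05 ± 0.13), Hmox1 (5.90 ± 0.17) and Ak4 (5.87 ± 0.13). Below that level, Nos2, inducible nitric oxide synthase, had 0 counts in both thymus libraries and 2.05 and 0.937 CPM in culture, and Stc2 was at 2.81 and 2.66 CPM in thymus (4.35 ± 0.32 against fresh MLN, and 3.67 to 5.64 without 1 of the fresh MLN libraries). The 3 that fell in culture were Rora, which is also a transcription factor of ILC2 (-2.07 ± 0.13), Kdm3a (-0.35 ± 0.06) and Bnip3l (-0.26 ± 0.08), the last not called without fresh MLN replicate 2 (-0.20, adjusted p = 0.0764) or cultured replicate 1 (-0.18, adjusted p = 0.120). These 3, Ero1l and Nos2, and Stc2 in thymus, were chosen after their values were seen. Ero1l, an oxidase that helps form disulfide bonds in secreted proteins, was at 144 and 128 CPM in fresh MLN and 7296 and 6348 in culture (5.65 ± 0.11).

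Genes past pyruvate had medians nearer to 0. Of 13 tested genes for the mitochondrial fates of pyruvate, 6 were higher and 4 lower in culture than in fresh MLN, with a median of 0.17, and 6 were higher and 0 lower in thymus, with a median of 0.20. In culture Pdk3 led them, followed by citrate synthase (Cs, 1.10 ± 0.07) and pyruvate carboxylase (Pcx, 1.01 ± 0.17); in thymus Pdk3, Cs (0.45 ± 0.06) and the pyruvate dehydrogenase subunit gene Pdha1 (0.36 ± 0.06). Of 16 genes for pathways that branch off from glycolysis, 12 were higher and 1 lower in culture, with a median of 1.19, and 10 were higher and 1 lower in thymus, with a median of 0.29. Psat1 and Phgdh, which make serine from 3-phosphoglycerate, were higher in thymus by 1.54 ± 0.08 and 1.50 ± 0.10 and in culture by 3.22 ± 0.09 and 2.08 ± 0.10. Transketolase (Tkt) was higher in thymus by 0.86 ± 0.07, and Pgm1, a phosphoglucomutase gene, was higher in culture by 2.39 ± 0.07 and at 25.6 and 27.0 CPM in thymus against 26.6 and 25.5 in fresh MLN.

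**Figure D4:**
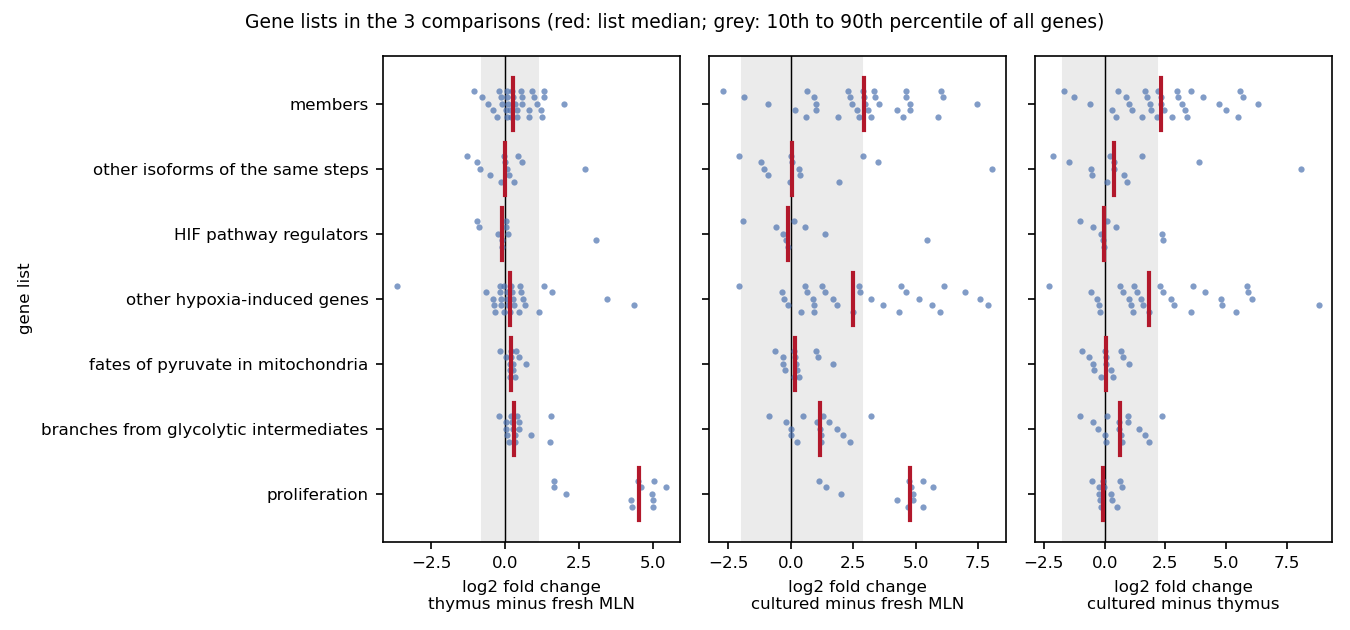
Log2 fold changes of the members, of the 5 lists of related genes and of the proliferation list in the 3 comparisons; each dot is a gene, red lines are list medians, and the grey band spans the 10th to 90th percentile of all genes tested. In culture against thymus the median is 2.31 for the members, -0.06 for the proliferation genes and -0.06 for all genes. The part of proliferation in the members' values was not tested.

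Several other gene groups also differed between thymus, fresh MLN and culture, not always in the direction of the members. All 12 proliferation genes were higher in thymus than in fresh MLN, with a median of 4.52, and all 12 in culture, with a median of 4.78. Between culture and thymus 5 were higher and 3 lower (41.7% and 25%), with a median of -0.06. Of all genes tested, 34.8% were higher and 37.8% lower in that comparison, also with a median of -0.06. Of 8 genes of heat shock and handling stress, thymus had 6 higher and 1 lower than fresh MLN, and all 8 were higher in culture. Markers of other cells differed between groups too: summed CPM of 8 B cell genes was 74.5 to 81.7 in thymus, 155 to 199.5 in fresh MLN and 118 to 130.4 in culture, and that of 7 NK cell genes 43.6 to 48.3, 70.4 to 74.3 and 147 to 249.6. T cell genes summed to 98.0 to 98.5, 111 to 118 and 55.0 to 63.4 CPM, dendritic cell genes to 19.9 to 22.1, 40.2 to 43.6 and 49.8 to 52.6, and erythroid genes to between 1.60 and 2.45 in all 6 libraries. Single genes carried much of these sums: without the most abundant gene of each list, B cell genes summed to 18.8 to 23.3 CPM in thymus, 13.3 to 18.5 in fresh MLN and 57.0 to 58.7 in culture, and NK cell genes to 9.07 to 9.73, 37.6 to 38.1 and 52.8 to 61.5. T cell genes then summed to 24.0 to 25.8, 16.3 to 20.5 and 11.8 to 15.8 CPM, and dendritic cell genes to 12.0 to 12.5, 34.7 to 37.2 and 13.8 to 16.4. The NK cell sum left in culture was nearly all Prf1, at 52.8 and 61.3 CPM. Gzma and Prf1 were the 2 NK cell genes higher in culture than in fresh MLN. The 5 others were lower, with Ncr1 at means of 0.0413 CPM in culture and 6.94 in fresh MLN. Markers at 0 in both libraries of a group included Cd14, Ptcra and Siglech in thymus, Pax5, Ebf1 and Epb42 in fresh MLN, and Ms4a1, Rag1, Rag2, Klrb1c, Klre1, Klra8, C1qc, Clec9a, Slc4a1 and Epb42 in culture. Of the tested markers, culture against fresh MLN had 3 higher and 1 lower of 5 for B cells, 2 and 5 of 7 for NK cells, 1 and 4 of 9 for T cells and 1 and 4 of 6 for dendritic cells; thymus had 1 higher and 2 lower, 0 and 6, 4 and 1, and 1 and 4 in the same order. The 33 members together summed to between 2534 and 3625 CPM in the fresh libraries and to 18470.2 and 19412 in culture, and the part of these other groups in the members' values was not tested.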

How the data were processed

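Messenger RNA of sorted ILC2 was sequenced in 6 libraries, 2 per group, from about 300000 cells each and with a stranded kit, per the labels' protocols. The deposited files hold the authors' raw count of reads per Ensembl gene, with no normalization; the values were whole numbers and 0 entries named anything but a gene. Counting with HTSeq 0.5.3p9 and the builds mm9 and NCBIM37 are named in the submitters' processing notes. Not given in the sources used here are the aligner, the annotation release and whether counting used strand.

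Symbols, exon lengths and overlaps came from a later annotation (GENCODE M21), matched by Ensembl identifier, and promoter windows from RefSeq. Counts were filtered with filterByExpr and scaled with TMM, and all 6 libraries were fitted together, 1 mean per group, in R 4.3.3 with edgeR 4.0.16 (quasi-likelihood F test, two-sided, Benjamini-Hochberg adjustment over 16231 genes). The script was tested on simulated data. The SE was derived from the fold change and its F statistic, and can be too small where a group has few counts. Permuting 2 libraries against 2 cannot give a p of 0.05, so no such test was run. Within a group the libraries differed by more than counting noise (chi-square over degrees of freedom 7.78 to 12.5), and the 2 were kept as separate libraries.

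The members, gene lists and tests were chosen with earlier results of these data known. Values per library were given for members called in either comparison with fresh MLN with an absolute log2 fold change of 1 or more and a higher group at 10 CPM or more, and for the leading isoform of each step. For each list of related genes, up to 3 called genes per comparison were named by size of change, from a level of 5 CPM upward. DESeq2 1.42.0, other scalings and filters, a replicate block, a test against a 2-fold change and leaving out each library were the alternatives. The sums of marker lists without 1 gene, and the alternatives for genes that are not members, were added after the data were seen. So were the values of Egln2, Pfkfb2, Prf1 and Ncr1. Some marker genes at 0 are not reported here by name.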

Additional observations from a re-analysis of the deposited data

How the results depend on the processing

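The number of members called in thymus against fresh MLN was 22 with the settings reported, 4 in a test against a 2-fold change, and 18 to 21 when 1 library was left out. For culture it was 32 to 33 against fresh MLN and 32 to 33 against thymus when 1 library was left out. The number of steps whose leading isoform was not the same in all libraries was 2 to 3 when each library of a group stood alone. Over the 3 other scalings, 31 of 33 members kept their direction and call in each comparison. Over the 6 fits without 1 library, 25 did in thymus against fresh MLN and 31 in each comparison with culture.

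Signs turned only for differences that were not called. In thymus against fresh MLN, Hk1 was -0.011 with RLE factors, -0.0023 with upper-quartile factors and -0.011 with DESeq2. Leaving out 1 library gave -0.042 to 0.078 for Hk1, -0.025 to 0.15 for Pfkm, -0.45 to 0.048 for Eno2 and -0.15 to 0.51 for P4ha1, with P4ha1 called higher at the upper end. Pfkfb3 in culture against fresh MLN was -0.058 with library totals alone. The cause was not tested.

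Replicate numbers were used as a block in a further fit, which called 22 members in thymus against fresh MLN, 33 in culture against fresh MLN and 33 in culture against thymus. The block changed 1 member's call, that of Pfkfb3 in culture against fresh MLN (0.16, adjusted p = 0.0277 in edgeR). Deviations of same-numbered libraries from their group means correlated at 0.115, 0.0339 and 0.0211 across genes, so the samples share a number and are not shown to be pairs. Hk3, with 10 and 14 counts in culture, and Aldoc, with 22 and 20 in fresh MLN, are limited by depth. The filter of at least 5 CPM in 2 libraries left 31 members tested.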
